A study of Mus musculus with 12 samples.

Results

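The mitochondrial quality-control genes of the mouse kidney were described across 3 Mut genotypes. The list held 32 genes of mitochondrial protein folding and degradation, mitochondrial DNA maintenance, biogenesis, fusion, fission and mitophagy, chosen by gene name. The choice was made with earlier results of these data known. Of the 32 genes, 31 were among the 19934 genes measured, and Ucp2 was not analysed here. Whole-kidney RNA came from 12 female C57BL/6 mice, 1 array each and 4 per genotype, all kept for 2 months on a high-protein diet. The mutants were Mut -/- and carried the transgene TgINS-Alb-Mut, which only their labels name. As the name has it, the transgene is tied to the albumin promoter, active mainly in liver cells. Effects of the transgene therefore cannot be told apart from those of losing the enzyme in the kidney. Both control groups, Mut +/- heterozygotes and Mut +/+ wild types, had the same diet, sex and background. No age is given in the sources used here.

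Mut (current symbol Mmut) encodes methylmalonyl-CoA mutase, a mitochondrial matrix enzyme, and the study asked what accompanies kidney disease when it is missing. Mitochondria fold imported proteins with matrix chaperones, degrade damaged ones with proteases of the matrix and inner membrane, and copy and transcribe their own DNA with imported factors. Their network is shaped by fusion and fission proteins, and worn organelles are removed by mitophagy. Proximal and distal tubule cells of the kidney are rich in mitochondria because solute transport costs much ATP.

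All values are deposited log2 signals normalised by RMA, and a gene was called when the Benjamini-Hochberg adjusted p of limma over all 19934 genes was under 0.05. Array medians lay between 7.17 and 7.23, and arrays correlated with each other at 0.982 to 0.995 across probe sets. Mmut lay between 8.20 and 8.47 on the mutant arrays, between 9.87 and 9.97 in heterozygotes and between 10.47 and 10.60 in wild types. Where its probes lie relative to the disrupted part, and whether they read the transgene, was not determined. Markers of the proximal tubule, 8 genes, were clearly present, with gene means of 10.87 to 13.26. Of 46 marker genes of 9 kidney cell types, 3 were called higher and 13 lower in mutants than in wild types. The mean of the 5 distal tubule markers was 9.21 to 10.25 in mutants against 10.54 to 10.59 in wild types, and 4 of them were called lower. The mean of the 5 endothelial markers was 8.76 to 9.19 against 9.35 to 9.54, with 3 called lower. For the 4 podocyte markers measured it was 8.25 to 8.45 against 8.52 to 8.61, with 2 called lower. For the 5 macrophage markers it was 8.16 to 8.92 against 8.11 to 8.39, with 2 called higher and 1 lower. Of the intercalated cell markers 2 were called lower, and of the principal cell markers 1 was called higher. The mean of the proximal tubule markers was 11.95 to 12.31 against 12.19 to 12.22, with 1 called lower. The part of these markers in the results was not tested, and in a whole kidney fewer cells of a type and less RNA per cell cannot be told apart.

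Between mutants and wild types, 6 of the 31 measured members were called, 19.4% against 9.66% of all genes. Higher in mutants were the mitophagy receptor Bnip3 and the matrix chaperone Hspa9, 2 members where 2.96% of all genes were called higher. Lower were the protease genes Clpp and Yme1l1, the mitochondrial transcription factor Tfb2m and the fusion gene Opa1, 4 members where 6.69% of all genes were called lower. All differences were small, from -0.30 to 0.38 on the log2 scale, and at a threshold of 1.5-fold 0 members were called. The median log2 fold change of the 31 members was -0.05, beside 0.004 over all genes. It was below 0 for 22 members and above 0 for 9, while 48.6% of all genes were below 0. For 10 members the 4 mutant arrays lay wholly above or below the 4 wild-type arrays, which held for 14.7% of all genes.

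**Figure D1:**
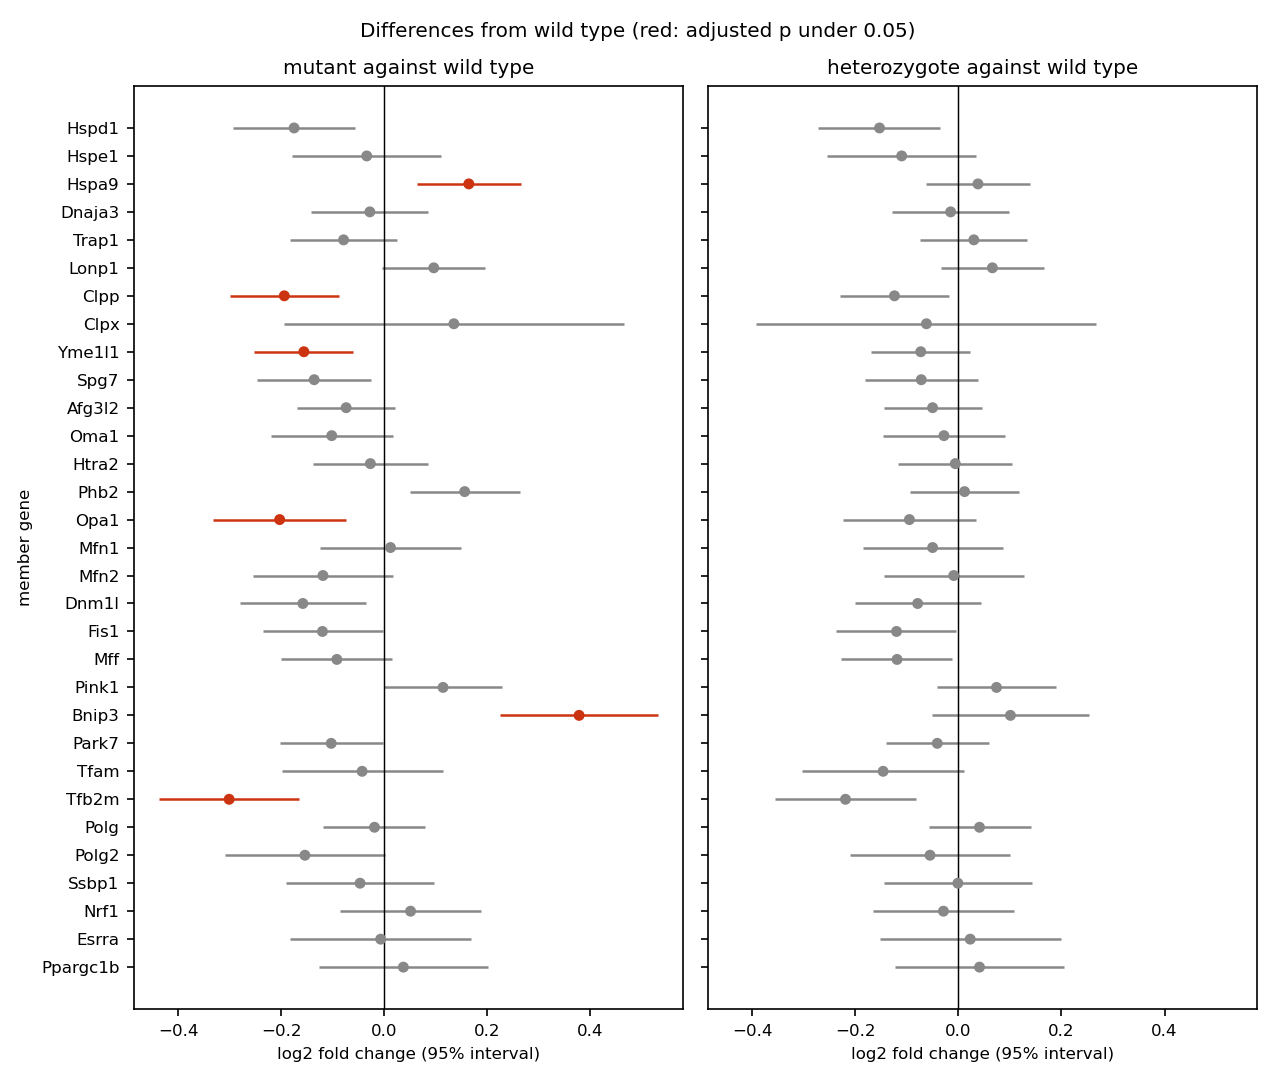
Log2 fold changes of the 31 members against wild type, in mutants (left) and heterozygotes (right), each from 4 against 4 arrays. Points are limma estimates, bars are 95% intervals, and red marks an adjusted p under 0.05. The 6 called members lie in the left panel, from -0.30 for Tfb2m to 0.38 for Bnip3, and the right panel holds none.

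Among the 5 matrix chaperones, 1 was called higher and 0 lower. Hspa9 encodes mortalin, the Hsp70 that pulls proteins through the inner membrane and folds them. Its mutant arrays read 11.94, 11.80, 11.95 and 11.95, the heterozygotes 11.82, 11.77, 11.79 and 11.76, and the wild types 11.75, 11.78, 11.71 and 11.75. All 4 mutants were above all wild types, but mutant replicate 2 lay inside the heterozygote range. Hspa9 was 1.12-fold higher than in wild types (log2 fold change 0.16, SE 0.05, limma adjusted p = 0.0422). It was 0.13 above heterozygotes (adjusted p = 0.194). Leaving out any 1 array other than mutant replicate 2 ended the call, with adjusted p up to 0.0988, as did quantile normalisation (adjusted p = 0.279).

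Hspd1 and Hspe1 encode Hsp60 and Hsp10, the barrel and lid of the matrix chaperonin, and lie head to head on chromosome 1. Their RefSeq starts are 215 bases apart, and the stretch between them, on the strand of Hspe1, is shown because it serves both genes. It spans chr1:55087933-55088147 of GRCm38.p6 and is credited to RefSeq. Capitals mark matches to TTCNNGAA, a core of the heat shock element that reads the same on both strands, 81 and 71 bases before the Hspe1 start.
Hspd1 and Hspe1: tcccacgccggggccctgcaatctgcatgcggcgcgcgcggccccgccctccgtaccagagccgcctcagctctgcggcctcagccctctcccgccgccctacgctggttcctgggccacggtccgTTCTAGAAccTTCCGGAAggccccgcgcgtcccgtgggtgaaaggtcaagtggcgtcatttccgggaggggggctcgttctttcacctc
TTCNNGAA occurred in 3 of the 35 windows of 250 bases before a member's start, 8.57%, and in 7.17% of all 32851 such windows. The match is a description of the letters.

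The pair did not read alike on the arrays. For Hspd1 the brightest probe set gave 11.27, 11.25, 11.36 and 11.38 in mutants, 11.29, 11.39, 11.34 and 11.32 in heterozygotes, and 11.36, 11.49, 11.55 and 11.56 in wild types. Wild-type replicate 1 lay among the mutants, and the difference of -0.18 was not called (adjusted p = 0.0627). For Hspe1 the mutants gave 11.79, 11.46, 11.50 and 11.45, the heterozygotes 11.50, 11.50, 11.43 and 11.46, and the wild types 11.55, 11.61, 11.60 and 11.57. Mutant replicate 1 was the highest of all arrays and the other mutants were below every wild type, so the mean difference was -0.03 (adjusted p = 0.81, 95% interval -0.18 to 0.11). Of the other chaperones, Trap1, the mitochondrial Hsp90, differed by -0.08 (adjusted p = 0.35), and Dnaja3, an Hsp40 partner of mortalin, by -0.03 (adjusted p = 0.798).

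Hspd1 has a second probe set, which gave another result. Probe set numbers of this array run in genome order. Among genes with 1 probe set, 18789 had at least 6 of up to 10 neighbours on a single chromosome. For 99.9% of these 18789 it was their own RefSeq chromosome, and genes without such neighbours were left out. By this measure the brightest probe sets of Hspd1, Hspe1 and Bnip3 lie among genes of other chromosomes, and each gene has a dimmer set among genes of its own. The own-locus probe set of Hspd1 read 10.21, 10.39, 10.40 and 10.43 in mutants, 10.29, 10.42, 10.40 and 10.40 in heterozygotes, and 10.46, 10.62, 10.77 and 10.77 in wild types. Every mutant and every heterozygote was below every wild type. With own-locus sets, a choice made after seeing the data, Hspd1 was called 1.23-fold lower in mutants (log2 fold change -0.30, SE 0.07, adjusted p = 0.023). Heterozygotes differed from wild types by -0.28 (adjusted p = 0.186) and mutants from heterozygotes by -0.02. The own-locus set of Hspe1 differed by 0.002 (adjusted p = 0.99). Whether the brighter sets read copies of these transcripts elsewhere in the genome was not tested.

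**Figure D2:**
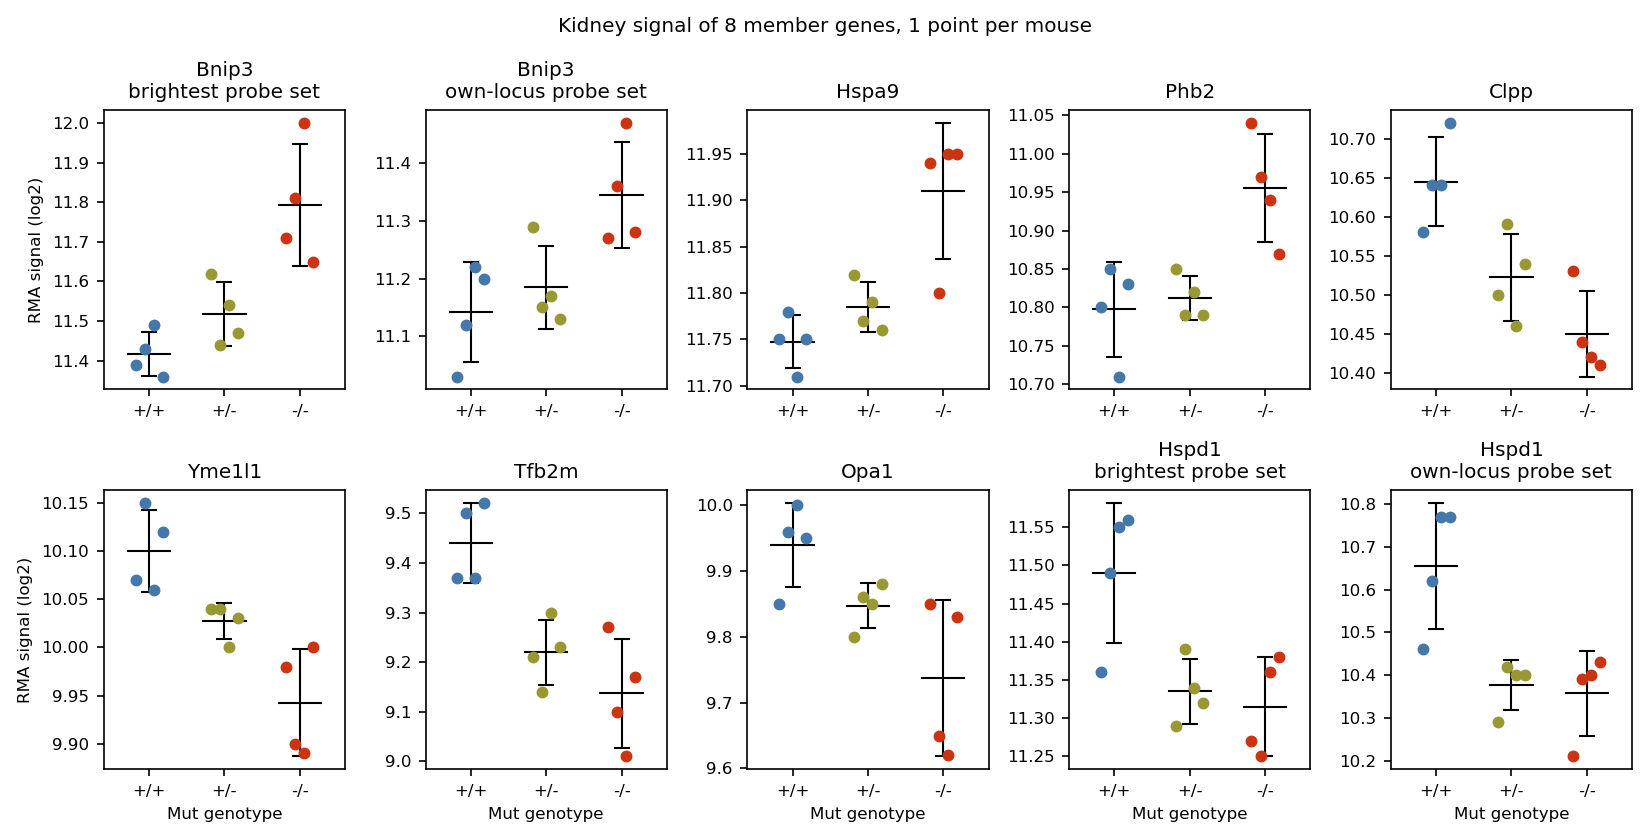
RMA signal (log2) of 8 members by Mut genotype, 1 point per mouse and 4 per group, with horizontal lines at the mean and bars of 1 SD. Bnip3 and Hspd1 appear with both probe sets, and the vertical axes do not start at 0 and differ between panels. Mutants lie above both control groups for the brightest set of Bnip3 (lowest mutant 11.65) and for Phb2 (lowest 10.87), and below every wild type for Clpp, Yme1l1, Tfb2m and Opa1.

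Among the 9 protease genes, counting the prohibitin scaffold, 0 were called higher and 2 lower, with a median log2 fold change of -0.07. Clpp encodes the proteolytic chamber of the ClpXP protease of the matrix. Its mutant arrays read 10.53, 10.44, 10.42 and 10.41, the heterozygotes 10.50, 10.59, 10.46 and 10.54, and the wild types 10.58, 10.64, 10.64 and 10.72. Mutants were below every wild type, and heterozygotes overlapped both groups. Clpp was 1.14-fold lower in mutants than in wild types (log2 fold change -0.19, SE 0.05, limma adjusted p = 0.0249). Against heterozygotes the difference was -0.07 (adjusted p = 0.572). The call was lost when mutant replicate 2, 3 or 4 or wild-type replicate 2, 3 or 4 was left out, and adjusted p then reached 0.0821.

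Clpx, the unfoldase that feeds Clpp, read 9.41, 9.47, 10.32 and 9.44 in mutants, 9.46, 9.40, 9.47 and 9.52 in heterozygotes and 9.46, 9.54, 9.56 and 9.54 in wild types. Mutant replicate 3 stood far above the other 11 arrays, which all lay between 9.40 and 9.56. With it the difference was 0.14 (SE 0.15, adjusted p = 0.649, 95% interval -0.194 to 0.465), and without it -0.08 (adjusted p = 0.357).

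Yme1l1 encodes the i-AAA protease, which faces the intermembrane space and cuts Opa1 among other substrates. It read 9.98, 9.90, 9.89 and 10.00 in mutants, 10.04, 10.04, 10.00 and 10.03 in heterozygotes and 10.07, 10.15, 10.06 and 10.12 in wild types. Mutants and heterozygotes were both below every wild type. In mutants Yme1l1 was 1.11-fold lower (log2 fold change -0.16, SE 0.045, limma adjusted p = 0.0421). Leaving out any 1 array other than mutant replicates 1 and 4 ended the call, with adjusted p up to 0.117. In heterozygotes the difference was -0.07 (adjusted p = 0.561).

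Phb2, a prohibitin of the inner-membrane scaffold that holds the m-AAA protease, read 11.04, 10.97, 10.94 and 10.87 in mutants. Heterozygotes read 10.85, 10.79, 10.82 and 10.79, and wild types 10.80, 10.85, 10.71 and 10.83. All 4 mutants were above all 8 controls, which held for 2 members, Phb2 and Bnip3, and for 5.76% of all genes. The difference from wild types, 0.16 (SE 0.05), was not called (limma adjusted p = 0.0632). It was called without mutant replicate 4 (adjusted p = 0.0416) and in 3 other alternatives. The m-AAA subunits Spg7 and Afg3l2 differed by -0.14 (adjusted p = 0.116) and -0.07 (adjusted p = 0.338). Lonp1, the main soluble matrix protease, differed by 0.10 (adjusted p = 0.23), the stress-activated Oma1 by -0.10 (adjusted p = 0.282) and the intermembrane-space protease Htra2 by -0.03 (adjusted p = 0.804).

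Of the 5 genes for mitochondrial DNA, 1 was called lower and 0 higher. Tfb2m encodes the factor that lets the mitochondrial RNA polymerase open its promoters. Its mutant arrays read 9.27, 9.10, 9.01 and 9.17, the heterozygotes 9.21, 9.14, 9.30 and 9.23, and the wild types 9.37, 9.50, 9.37 and 9.52. Every mutant and every heterozygote was below every wild type, and the mutants and heterozygotes overlapped. Tfb2m was 1.23-fold lower in mutants than in wild types (log2 fold change -0.30, SE 0.06, limma adjusted p = 0.00983). Heterozygotes were -0.22 from wild types (adjusted p = 0.22), and mutants -0.08 from heterozygotes (adjusted p = 0.614, 95% interval -0.22 to 0.05). The second probe set gave -0.31 (limma adjusted p = 0.00822 over 21785 probe sets). That set lies among genes of another chromosome, and whether it reads a copy of the transcript was not tested. The call of Tfb2m held in all 21 alternatives that refit single genes, with log2 fold changes from -0.35 to -0.26.

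The promoters of Bnip3, Tfb2m and Opa1 are printed because these 3 called members had the largest differences. Each is the 250 bases before the RefSeq start, 5′ to 3′ on the gene's strand, in GRCm38.p6. Bnip3 lies at chr7:138909507-138909756 on the minus strand, Tfb2m at chr1:179546277-179546526 on the minus strand, and Opa1 at chr16:29579084-29579333 on the plus strand. Capitals mark, in Bnip3, the ACGTG core bound by hypoxia-inducible factors, read here on both strands as overlapping matches. In Opa1 they mark the TGCGCANGC element of nuclear respiratory factor 1 on the other strand, 48 bases before the start, and Tfb2m held no match.
Bnip3: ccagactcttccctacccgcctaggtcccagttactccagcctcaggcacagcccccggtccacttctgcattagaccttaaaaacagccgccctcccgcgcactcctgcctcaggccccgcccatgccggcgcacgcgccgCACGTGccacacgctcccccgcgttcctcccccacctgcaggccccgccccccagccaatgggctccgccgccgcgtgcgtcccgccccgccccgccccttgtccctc
Tfb2m: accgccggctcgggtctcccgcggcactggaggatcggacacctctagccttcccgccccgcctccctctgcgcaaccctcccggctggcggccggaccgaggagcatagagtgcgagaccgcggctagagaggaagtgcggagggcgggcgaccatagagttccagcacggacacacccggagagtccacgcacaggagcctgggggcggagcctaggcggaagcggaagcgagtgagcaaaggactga
Opa1: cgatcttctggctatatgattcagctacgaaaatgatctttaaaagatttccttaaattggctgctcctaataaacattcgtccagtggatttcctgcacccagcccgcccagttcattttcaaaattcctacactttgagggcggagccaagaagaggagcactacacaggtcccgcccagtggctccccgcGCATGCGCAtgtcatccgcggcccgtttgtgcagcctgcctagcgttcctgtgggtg

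Both strands of the 35 member windows, from 28 genes, were searched for 6 motifs. ACGTG was in 9 windows (25.7%, against 16.6% of all 32851 windows), those of Bnip3, Clpx, Dnaja3, Hspd1, Lonp1, Mfn2, Phb2, Polg2 and Spg7. TGCGCANGC was in 5 (14.3%, against 3.45%), those of Clpx, Dnaja3, Esrra, Opa1 and Park7. TGATGNAA, the composite element of ATF4 and CHOP, was in 1, that of Esrra (2.86%, against 3.45%). TNAAGGTCA, bound by estrogen-related receptors, and CCGGAAGTG, bound by GABP, were in 0 member windows and in 1.14% and 1.44% of all windows. These are letter matches in a short window and say nothing of binding.

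The other 4 genes for mitochondrial DNA were not called. Tfam, which packages the DNA, differed by -0.04 (adjusted p = 0.778), and heterozygote replicate 2 was its lowest array at 7.17. Polg, the DNA polymerase, differed by -0.02 (adjusted p = 0.845), its accessory subunit Polg2 by -0.15 (adjusted p = 0.211) and the single-strand binding protein Ssbp1 by -0.05 (adjusted p = 0.731). Of the 3 biogenesis regulators in the list, 0 were called. Nrf1, nuclear respiratory factor 1, differed by 0.05 (adjusted p = 0.684), the coactivator Ppargc1b by 0.04 (adjusted p = 0.817) and the nuclear receptor Esrra by -0.007 (adjusted p = 0.971).

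Among the 6 fusion and fission genes, 1 was called lower and 0 higher, and their median log2 fold change was -0.12. Opa1 encodes the inner-membrane fusion GTPase. It read 9.85, 9.65, 9.62 and 9.83 in mutants, 9.80, 9.86, 9.85 and 9.88 in heterozygotes and 9.85, 9.96, 10.00 and 9.95 in wild types. The mutants split into a pair near the heterozygotes and a pair well below, and their highest array touched the lowest wild type to within 2 decimals. Opa1 was 1.15-fold lower than in wild types (log2 fold change -0.20, SE 0.06, limma adjusted p = 0.048). Its call was lost without any 1 array other than mutant replicates 1 and 4 and wild-type replicate 1, with adjusted p up to 0.118.

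Dnm1l, the fission GTPase Drp1, differed by -0.16 (adjusted p = 0.0989), and its adaptors Fis1 and Mff by -0.12 (adjusted p = 0.192) and -0.09 (adjusted p = 0.284). Fis1 was called without wild-type replicate 1 (adjusted p = 0.0443), the lowest of its wild types at 11.18 against 11.36 to 11.40. The outer-membrane fusion genes Mfn2 and Mfn1 differed by -0.12 (adjusted p = 0.274) and 0.01 (adjusted p = 0.938). Mfn1 was highest in mutant replicate 1, at 9.71, where the other mutants read 9.38 to 9.48.

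Of the 3 mitophagy and stress-sensing genes, 1 was called higher and 0 lower. Bnip3 encodes an outer-membrane receptor that ties mitochondria to the autophagosome. Its brightest probe set read 11.71, 11.81, 12 and 11.65 in mutants, 11.62, 11.44, 11.54 and 11.47 in heterozygotes and 11.39, 11.43, 11.49 and 11.36 in wild types. All mutants were above all controls, and mutant replicate 3 was the highest. Bnip3 was 1.30-fold higher than in wild types (log2 fold change 0.38, SE 0.07, limma adjusted p = 0.00567). Against heterozygotes the difference was 0.28 (adjusted p = 0.0597), and heterozygotes were 0.10 above wild types (adjusted p = 0.617). The call held whichever array was left out, with adjusted p up to 0.0235.

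The own-locus probe set of Bnip3 gave a smaller difference. It read 11.27, 11.36, 11.47 and 11.28 in mutants, 11.29, 11.15, 11.17 and 11.13 in heterozygotes and 11.03, 11.12, 11.22 and 11.20 in wild types. Mutants were above every wild type, and heterozygote replicate 1 lay among the mutants. The log2 fold change was 0.20 (SE 0.06, limma adjusted p = 0.0546, 95% interval 0.07 to 0.33), so the call ended, and the mutants were 0.16 above heterozygotes (adjusted p = 0.209). Pink1, the kinase that marks depolarised mitochondria, differed by 0.11 (adjusted p = 0.209). Park7, encoding the oxidation-sensitive protein DJ-1, differed by -0.10 (adjusted p = 0.19), with all mutants (11.99 to 12.06) below all wild types (12.07 to 12.22).

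**Figure D3:**
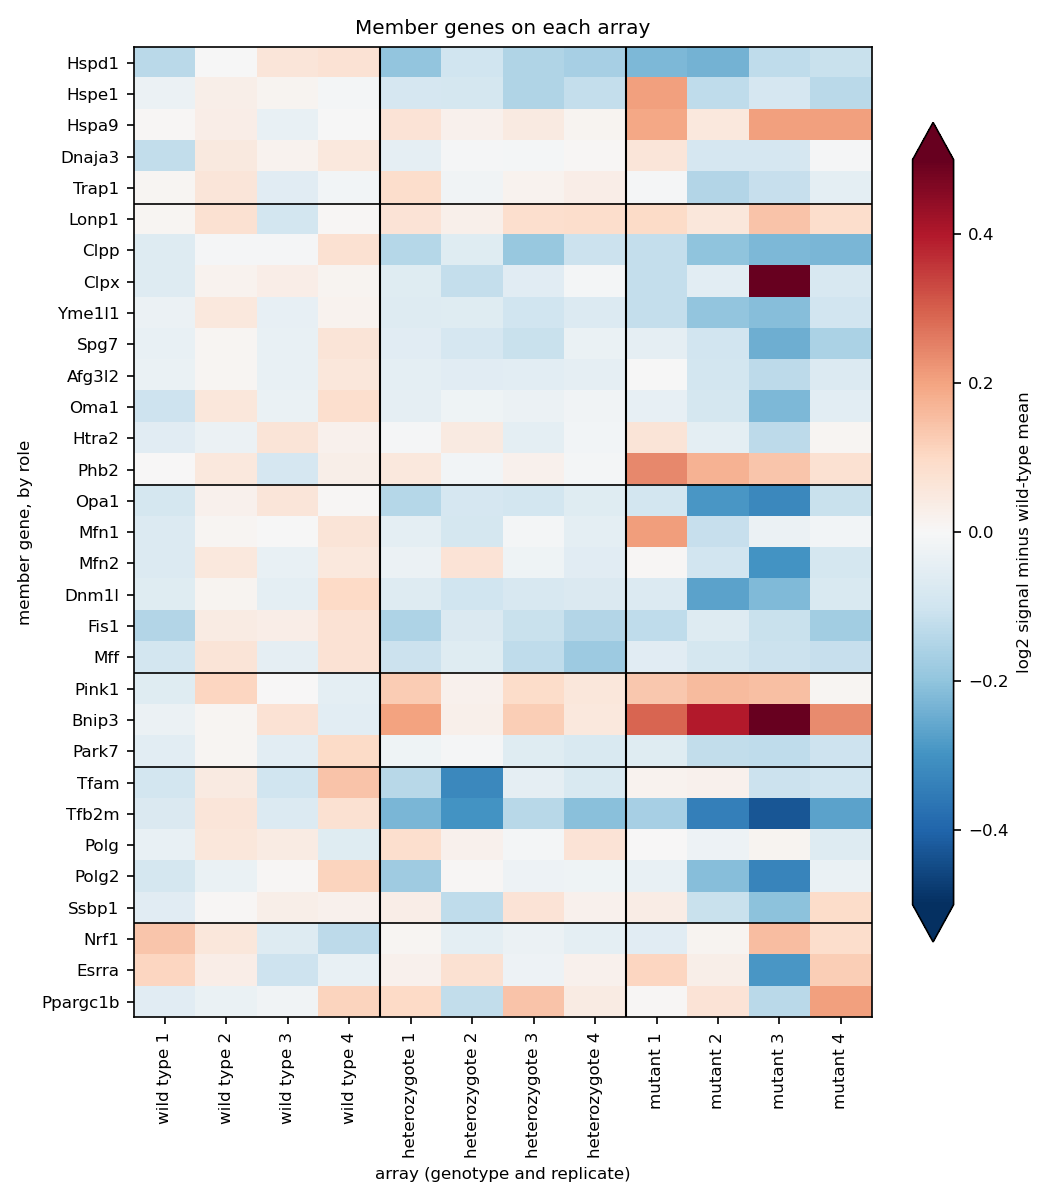
Log2 signal of each member on each of the 12 arrays minus its wild-type mean, with members in rows by role and arrays in columns by genotype. Colours are capped at 0.5, and Clpx and Bnip3 in mutant replicate 3 exceed the cap. Bnip3 is red and Tfb2m blue on all 4 mutant arrays, while most other rows are pale.

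Single arrays differed across many members at once. Mutant replicate 1 was the highest mutant for 16 of the 31 members, and mutant replicate 3 the lowest for 14. Wild-type replicate 1 was the lowest of its group for 18 members and wild-type replicate 4 the highest for 15. Without mutant replicate 3, or without wild-type replicate 2, 3 or 4, 2 members were called in place of 6, and 3 were called without mutant replicate 2 or without any 1 heterozygote. Calls over all 19934 genes fell as well, from 1925 to 1553 without mutant replicate 3. They were 1125, 1327 and 1019 without wild-type replicates 2, 3 and 4. Without mutant replicate 2 they were 1622, and without 1 heterozygote 1637 to 1832. Mutant replicate 3 also had the lowest mutant means of the proximal tubule markers (11.95), distal tubule markers (9.21) and endothelial markers (8.76). The same held for thick ascending limb (10.96), principal cell (9.34), intercalated cell (9.35) and fibroblast (8.77) markers. It did not hold for podocyte (8.37) and macrophage (8.24) markers. The part of these markers was not tested. The median over all probe sets was 7.23 on wild-type replicate 1 and 7.17 on wild-type replicate 4.

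**Figure D4:**
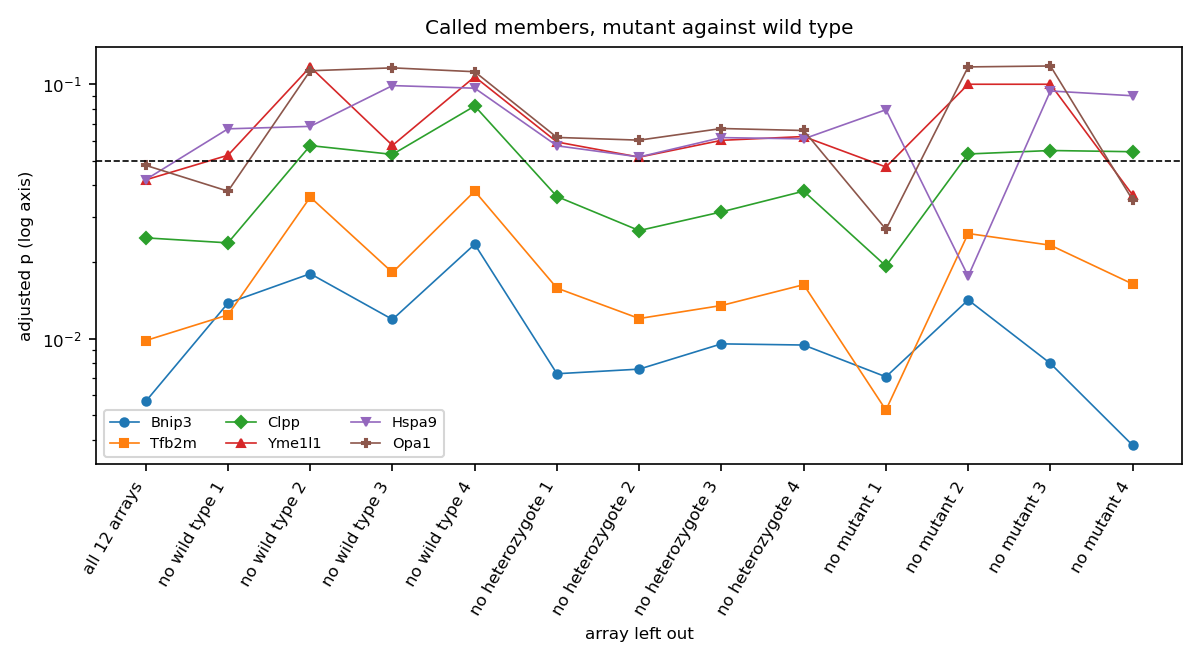
Adjusted p of the 6 called members, mutant against wild type, with all 12 arrays (left) and with each array left out, on a log axis. Each line is 1 gene, with lines drawn to guide the eye, and the dashed line is 0.05. Bnip3 and Tfb2m stay under it throughout, up to 0.0235 and 0.038, while the other 4 cross it.

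Against heterozygotes, 0 of 31 members were called in mutants by limma, where 2.54% of all genes were. The lowest limma adjusted p were 0.0597 for Bnip3, 0.157 for Phb2, 0.194 for Hspa9 and 0.294 for Trap1. For 2 members, Bnip3 and Phb2, the mutant and heterozygote arrays did not overlap, against 9.69% of all genes. Bnip3 was called without mutant replicate 4 (adjusted p = 0.0299). Between heterozygotes and wild types 0 members were called, where 0.135% of all genes were, and the lowest limma adjusted p was 0.22, for Tfb2m. The arrays of these groups did not overlap for 5 members, Hspe1, Yme1l1, Afg3l2, Tfb2m and Dnm1l, all lower in heterozygotes, against 8.44% of all genes. The heterozygote mean lay between the other group means for 20 of 31 members, and for 45.4% of all genes. These comparisons share arrays with the first, so they are not independent of it.

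For the 25 members not called between mutants and wild types, the 95% intervals lay within -0.31 to 0.26, apart from that of Clpx. Most of these intervals hold 0, which does not show that the levels were equal.

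Other mitochondrial genes of the same processes numbered 137 in 7 lists, of which 128 were measured. Between mutants and wild types 15 were called, 5 higher and 10 lower, 11.7% against 9.66% of all genes. Between mutants and heterozygotes 2 were called, and between heterozygotes and wild types 0. The 2 were Tomm20, an import receptor, 0.37 higher (adjusted p = 0.00848), and Prkaa1, -0.22 (adjusted p = 0.0429). Against wild types Tomm20 was only 0.17 higher in mutants and was not called (limma adjusted p = 0.106).

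Of 20 further genes for mitochondrial DNA and its transcription, 3 were called lower and 1 higher in mutants against wild types. Tefm, which keeps the mitochondrial RNA polymerase elongating, read 7.65, 7.58, 7.38 and 7.62 in mutants and 7.75, 7.90, 7.86 and 8.0 in wild types, with no overlap. It fell by 0.32 on the log2 scale (limma adjusted p = 0.00886), and its heterozygotes (7.63 to 7.68) were also below every wild type. Dguok, a kinase for deoxynucleosides in the matrix, differed by -0.31 (adjusted p = 0.00971). Slc25a36, a pyrimidine nucleotide carrier, differed by -0.38 (adjusted p = 0.00411), but by -0.145 with the probe set at its own locus (adjusted p = 0.156). Endog, a mitochondrial nuclease, was 0.19 higher (adjusted p = 0.0448), a call lost when any 1 array other than mutant replicate 4 and heterozygote replicate 2 was left out, with adjusted p up to 0.116.

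Of 18 further biogenesis regulators, 2 were called lower and 0 higher. Ppargc1a, encoding the coactivator PGC-1alpha, read 11.26, 11.21, 11.13 and 11.18 in mutants, 11.14, 11.15, 11.38 and 11.29 in heterozygotes and 11.33, 11.55, 11.62 and 11.63 in wild types. Mutants were below every wild type and overlapped the heterozygotes. The difference from wild types was -0.34 (limma adjusted p = 0.0115), and heterozygotes were -0.29 from wild types (adjusted p = 0.158). With the mean of its probe sets the call ended at -0.21 (adjusted p = 0.147). Prkaa1, a catalytic subunit of the energy sensor AMPK, read 9.04 to 9.18 in mutants, 9.31 to 9.36 in heterozygotes and 9.36 to 9.55 in wild types, and differed by -0.33 from wild types (adjusted p = 0.0023).

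Of 17 further mitophagy genes, 2 were called lower and 1 higher. Gabarapl1, which encodes an Atg8-family protein of the autophagosome, read 12.56, 12.47, 12.47 and 12.53 in mutants and 12.91, 12.86, 12.89 and 12.90 in wild types. The groups were far apart relative to their spread, and the difference was -0.38 (limma adjusted p = 0.00171). Bnip3l, the close relative of Bnip3, differed by -0.29 (adjusted p = 0.0259), opposite in sign to Bnip3. With the probe set at its own locus Bnip3l differed by -0.245 (adjusted p = 0.0541), and its call also ended when mutant replicate 1 or 3 or wild-type replicate 2, 3 or 4 was left out, and adjusted p then reached 0.0841. Map1lc3a, another Atg8-family gene, was 0.27 higher (adjusted p = 0.0497), a call that ended when any 1 array other than mutant replicate 4 and heterozygote replicate 1 was left out, with adjusted p up to 0.15.

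Of the remaining 4 lists, the called share was 3.45% for import and 4.35% for dynamics and cristae. It was 16.7% for chaperones and proteases and 22.2% for carriers, beside 9.66% of all genes. In the lists above it was 20% for mitochondrial DNA, 11.1% for biogenesis regulators and 17.6% for mitophagy. Of 29 import genes 1 was called, Timm23, the channel of the inner membrane, 0.17 higher (limma adjusted p = 0.0409). Its call was lost in 15 of 21 alternatives, among them each array left out other than mutant replicates 2 and 4 and wild-type replicate 4, with adjusted p up to 0.154. The Timm23 set used lies among genes of another chromosome, and with a set at its own locus the difference was 0.18 (adjusted p = 0.0324). Of 12 further chaperones and proteases 2 were called, Lactb, a filament-forming serine protease homologue, at -0.29 (adjusted p = 0.0117) and Ppif, encoding cyclophilin D, at -0.28 (adjusted p = 0.0238). The call of Ppif ended without mutant replicate 3 or wild-type replicate 2 or 4, at adjusted p up to 0.0706. Of 23 further dynamics and cristae genes 1 was called, Mtfp1, a fission protein of the inner membrane, at -0.37 (adjusted p = 0.033). It was no longer called without mutant replicate 4 or wild-type replicate 2, 3 or 4, at adjusted p up to 0.104. Among 9 carriers 2 were called higher. Slc25a20, the carnitine and acylcarnitine carrier that serves fatty acid oxidation, read 9.79, 10.21, 9.99 and 9.61 in mutants, above every control (9.22 to 9.53). It was 1.46-fold higher than in wild types (log2 fold change 0.55, limma adjusted p = 0.00627), a larger difference than that of any of the 31 members. Slc25a30, a kidney mitochondrial carrier, was 1.25-fold higher (adjusted p = 0.0153), a call lost when wild-type replicate 2 or 4 was omitted (adjusted p up to 0.0522).

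**Figure D5:**
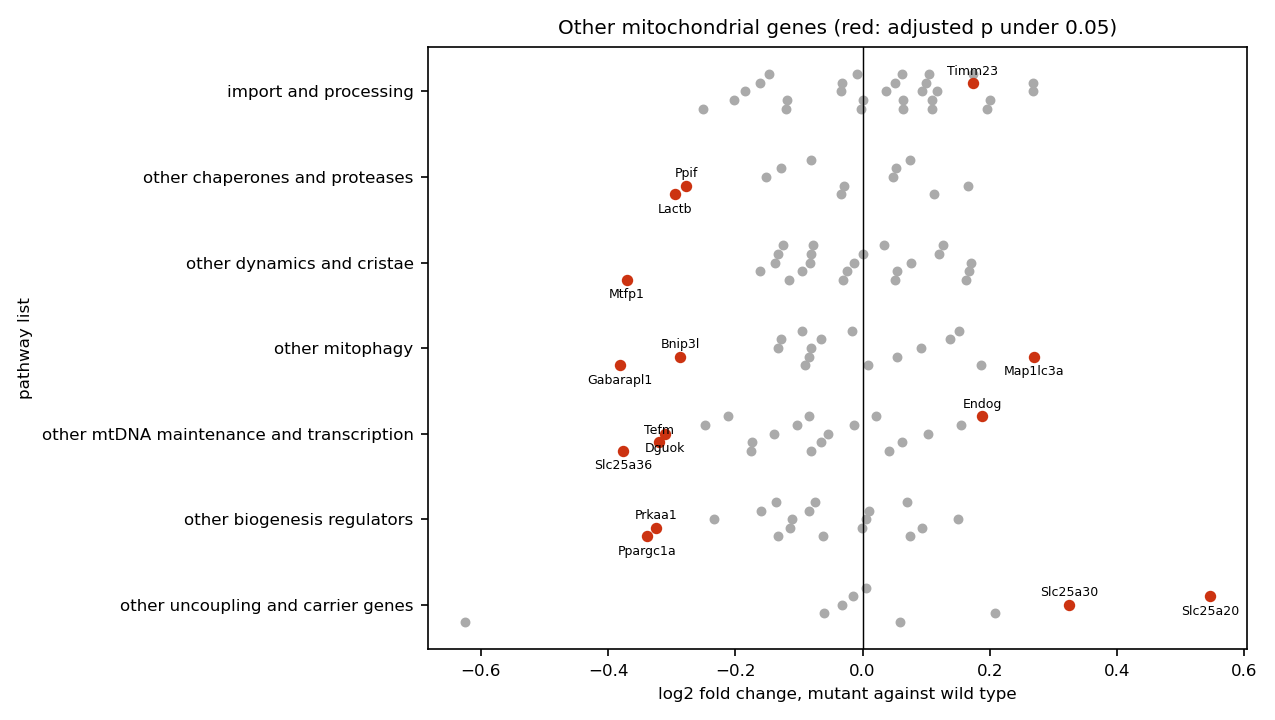
Log2 fold changes, mutant against wild type (4 against 4 arrays), of the 128 other mitochondrial genes measured, in 7 lists. Each point is 1 gene, shifted vertically for legibility, and the 15 red, named points have an adjusted p under 0.05. Called points lie at both ends, from -0.38 for Gabarapl1 to 0.55 for Slc25a20, and the lowest grey point is Ucp1, at -0.62 (adjusted p = 0.253).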

How the data were processed

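Expression was measured in total kidney RNA on Affymetrix arrays, 1 per mouse. The sample descriptions name a mouse gene 1.0 ST array and the labelling text a human one, and the probe sets matched mouse genes. Per the submitters' processing notes, the authors used Affymetrix Expression Console 1.2.1 and RMA, and the deposited values are log2 signals of single probe sets. RMA equalises the arrays' distributions, so a shift shared by most genes is lost, and small signals give compressed differences.

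Of 35552 probe sets, 21785 had 1 gene symbol in the platform annotation, and each gene was represented by its brightest set, leaving 19934 genes. The 31 members matched RefSeq by Entrez identifier. All 3 groups entered 1 limma fit (limma 3.58.1, R 4.3.3, lmFit and eBayes, 9 residual degrees of freedom), with Benjamini-Hochberg adjustment over all genes of each comparison. The p-values set each group difference against the spread between mice, pooled over the groups and moderated by limma. With 4 arrays per group the precision is limited, and no batch is given in the sources used here. The fit was tested on simulated data with 50 genes changed at each of several sizes. It recovered 9 of 50 at a log2 change of 0.2, 40 at 0.5, 48 at 1 and 49 at 2. In the simulated data 7 unchanged genes were called. Figures used Python 3.11.15 and matplotlib 3.10.9.

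The members and lists were chosen with earlier results of these data known. Values on every array are given for members called in a comparison, or with mutants apart from both control groups, and for Hspd1, Hspe1 and Clpx, chosen after their values were seen. Up to 4 called genes per other list are named, with Tomm20 and Ucp1 added after their values were seen. Alternatives were a block for the replicate number, leaving out each array, averaging the probe sets of a gene, a minimum group mean of 6, array weights, a trended and robust prior, only the groups compared, centred array medians, quantile normalisation, a 1.5-fold minimum and, added after seeing the data, the probe set at the gene's own locus. Motifs were searched on both strands of RefSeq promoters of GRCm38.p6.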

Additional observations from a re-analysis of the deposited data

Results flagged for a closer look

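In 6 of 93 groups of 4 arrays, 1 array of a member lay far from the other 3 by Dixon's criterion, and chance gives about 1 in 20. Clpx read 10.32 in mutant replicate 3, where the other mutants read 9.41 to 9.47. Hspe1 read 11.79 in mutant replicate 1, against 11.45 to 11.50. Hspa9 read 11.80 in mutant replicate 2, against 11.94 to 11.95. Pink1 read 10.18 in mutant replicate 4, against 10.30 to 10.32. Among heterozygotes, Yme1l1 read 10.00 in replicate 3, against 10.03 to 10.04, and Polg2 read 7.16 in replicate 1, against 7.31 to 7.34. The 4 mutant values belong to 4 different arrays.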

How the results depend on the processing

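Between mutants and wild types the count of members called was 6. It was 2 to 6 with 1 array left out, not always the same genes, 3 with array weights, 2 with only the groups compared, 3 with centred array medians and 0 at 1.5-fold or more. It was 6 to 8 with averaged probe sets, a minimum group mean, the trended and robust prior or quantile normalisation, where Hspd1 was gained. Calls over all genes, 1925, also changed, to 1019 to 1928 with 1 array left out and 1625 with array weights. They were 1154 with only the groups compared, 1782 with centred medians and 1915 with averaged probe sets. With the minimum group mean they were 2165 of 15932 genes, with the trended prior 2096 and with quantile normalisation 2117. Against heterozygotes, where 0 members were called, 0 to 1 were with 1 array left out, 1 with genes of a group mean of at least 6 and 1 with the trended and robust prior. The count of other mitochondrial genes called, 15, became 9 to 15 with 1 array left out, with some genes lost and others gained, 9 with only the groups compared and 0 at 1.5-fold or more. Between heterozygotes and wild types 0 members were called in all 22 alternatives. With replicate numbers as a block, 2 members, 13 other mitochondrial genes and 1552 of all genes were called between mutants and wild types. The numbers did not pair the arrays: deviations of same-numbered arrays correlated at -0.239 to 0.168, and 0 of 12 arrays correlated best with its own number. With the probe set at the gene's own locus 6 members were called, without Bnip3 and with Hspd1, and 1913 of all genes. No called difference changed sign. The causes of these changes were not tested. Over all genes, centring moved the log2 fold change between mutants and wild types by a median of -0.0089 and quantile normalisation by 0.0025. The largest shifts of a member were 0.0089 with centring and 0.0841 with quantile normalisation. Signal over background could not be assessed from the deposited values.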
